A study of Capra hircus with 12 samples.

Results

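Cytosolic ribosomal proteins are the protein components of the ribosome, the particle that translates messenger RNA. The genes described here were chosen by name alone: those named RPL or RPS followed by a number, RPLP0, RPLP1, RPLP2 and RPSA, without the RPS6K kinases. They were 79 of 20326 genes in the deposited table, 32 of the small subunit and 47 of the large subunit. The statistical tests covered 77 of them, since RPL3L and RPL10L did not reach a value of 1 in 2 libraries.

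The tissue was the secondary hair follicle, which makes cashmere in the skin of the goat (Capra hircus), taken from animals aged 1.5 years. May and September libraries are labelled anagen (growth), November and December libraries catagen (regression) and February and March libraries telogen (rest). A male and a female library came from every month, which gives 4 libraries per stage and 12 in all, with no treatment given in the labels. The labels do not say whether an animal was sampled more than once, and the p-values below measure the spread between these samples.

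Each ribosome holds 1 small subunit, which reads the messenger RNA, and 1 large subunit, which joins the amino acids. Ribosomal protein messenger RNAs carry a 5′ terminal oligopyrimidine motif, and their translation depends on growth signalling through the mTOR kinase. Growing follicles make large amounts of keratin protein in the hair matrix and its daughter cells.

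Library sums of the deposited values ran from 904623 to 1127797, and 18637 to 20099 genes had a value above 0. The 8 hair shaft and inner root sheath keratins in the table, of 17 listed, summed to 17156 to 21901 in anagen, 13202 to 20000 in catagen and 3753 to 12938 in telogen, and none was at 0 throughout a stage. Transcripts of the mitochondrial genome took 1.53 to 2.42% of the signal in anagen and 2.07 to 3.51% in catagen. In telogen they took 4.63% in the March male and 9.88 to 11.8% in the other 3 libraries. The March male was thus the lowest, though Dixon's test, used at the end, did not flag it.

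Ribosomal protein transcripts together took 17.6 to 22.3% of the library signal in anagen, 20.6 to 24.8% in catagen and 12.5 to 17.6% in telogen. The deposited column is headed TPM, a per-length unit, and levels of different genes are set side by side here on that scale. How the values were scaled is not given in the sources used here, so such comparisons rest on the heading. Leaving aside 4 paralogs with low values, the 73 other tested members had mean values between 586 for RPL15 and 22860 for RPS29, with a median of 2229. RPS29, a zinc finger protein of the small subunit, had the highest mean value and alone made up 1.11 to 3.80% of the signal of a library. RPLP1 (mean 5429), RPL37 (5103), RPL31 (4754) and RPL23 (4507) followed. Processed pseudogenes of ribosomal proteins are common in mammals, and how reads were shared between such copies is not given in the sources used here.

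Small subunit members held 8.10 to 11.3% of the signal in anagen, 10.3 to 12.5% in catagen and 5.50 to 8.45% in telogen. Large subunit members held 9.54 to 11.01%, 10.4 to 12.3% and 6.97 to 9.18% in the same stages. For both subunits every telogen library lay below every catagen library. Telogen overlapped anagen for the small subunit, where the March male (8.45%) lay above the May male (8.10%), but not for the large subunit. With mitochondrial transcripts left out of the denominator, the small subunit held 8.23 to 11.6% in anagen, 10.7 to 12.9% in catagen and 6.24 to 8.86% in telogen. The large subunit then held 9.69 to 11.3%, 10.7 to 12.8% and 7.90 to 9.62% in the same stages.

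The ratio of the summed small subunit signal to the summed large subunit signal was 0.934 ± 0.0800 in anagen, 1.02 ± 0.0234 in catagen and 0.852 ± 0.0577 in telogen (SD, n = 4 each). The telogen and catagen libraries did not overlap in this ratio, with 0.790 to 0.921 in telogen and 0.992 to 1.05 in catagen. Anagen overlapped catagen, with 0.849 and 0.890 in the May male and female and 1.03 and 0.968 in the September pair. Without RPS29, a choice made after seeing the data, the ratio was 0.743 ± 0.0169 in anagen, 0.744 ± 0.0127 in catagen and 0.660 ± 0.0272 in telogen. The anagen and catagen means were therefore nearly equal without RPS29, whereas telogen (0.627 to 0.691) still lay below catagen (0.729 to 0.757).

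**Figure D1:**
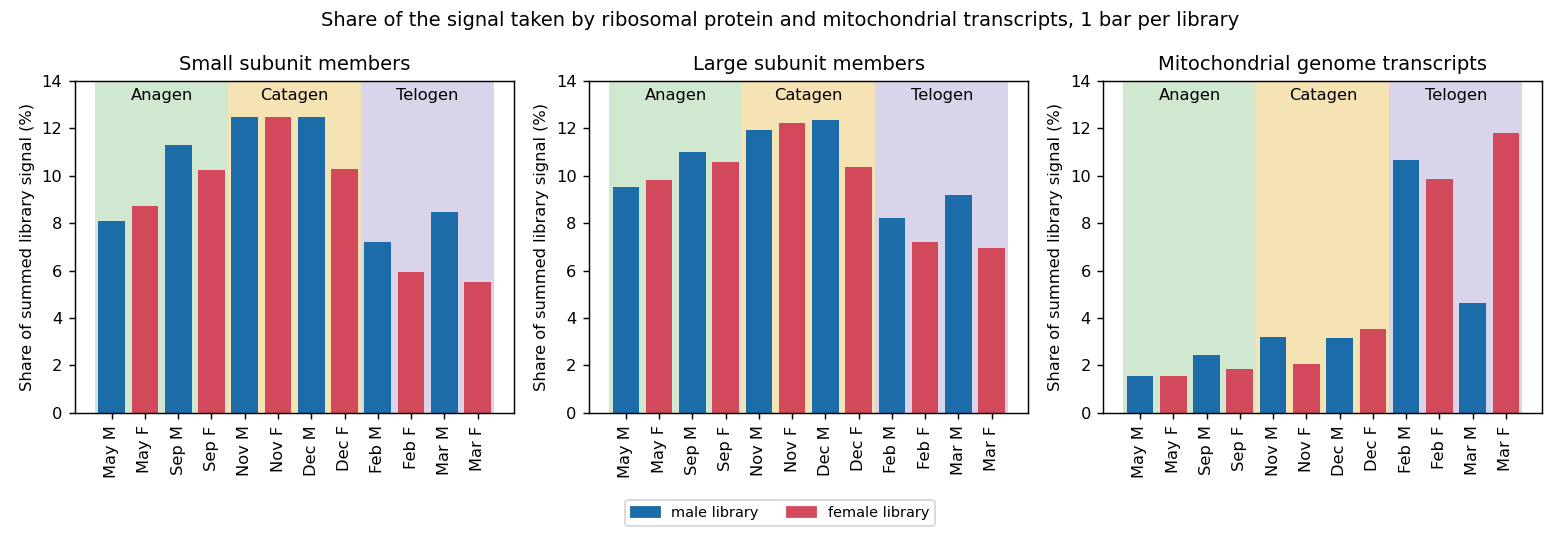
Share of the summed library signal (%) held by small subunit members, large subunit members and mitochondrial genome transcripts, 1 bar per library, with stages shaded. Both ribosomal shares are lowest in telogen (5.50 to 8.45% and 6.97 to 9.18%), where the mitochondrial share is highest (4.63 to 11.8%). All shares of a library have the same denominator.

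In telogen compared with catagen, 49 of the 77 tested ribosomal protein genes fell and 1, RPL23A, rose (limma on log2(value + 1), Benjamini-Hochberg adjusted p below 0.05 over 16095 genes). Of all genes tested, 43.6% passed in this comparison, 19% as lower and 24.5% as higher. The median log2 change of the members was -0.75, against 0.07 for all genes. Telogen lay wholly below catagen for 57 members and wholly above it for 0, where the background was 15.9% of genes lower and 19.9% higher. In bulk tissue, fewer cells of a type and less RNA per cell cannot be told apart.

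Both subunits took part. Among small subunit members 22 of 32 fell and 0 rose, with a median of -0.86 and a middle 50% of changes between -1.34 and -0.56. Among large subunit members 27 of 45 fell and 1 rose, with a median of -0.65 and a middle 50% between -1.01 and -0.44. The difference between the subunits was not tested. Quantile normalization, which forces all libraries to 1 distribution, reduced the falls to 37 with 3 rises and a median of -0.42, and month means averaged before testing left 32 falls and 0 rises. Over all genes the falls numbered 3063 in the main fit, 3184 with quantile normalization and 2569 with averaged months. Without the March male 51 members fell and 2 rose, and without both May libraries as well, a choice made after seeing the data, 52 fell and 2 rose. Over all genes 3413 fell without the March male and 3397 without both May libraries as well.

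The same libraries differed in other transcripts. The mitochondrial genome transcripts summed to 41883 to 114554 in telogen and 23367 to 34782 in catagen, and 12 of 13 rose. The 8 hair keratins summed to 3753 to 12938 in telogen and 13202 to 20000 in catagen, and 6 of 8 fell (4 with quantile normalization). Immune cell markers, 12 in the table and none at 0 throughout a stage, summed to 70.5 to 107 in telogen and 45.5 to 57.4 in catagen, and 6 of 10 tested rose. The summed markers of epidermis (10 genes), dermal fibroblasts (10), endothelium (8) and skeletal muscle (14) overlapped between telogen and catagen. The part of these shifts in the result was not tested.

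**Figure D2:**
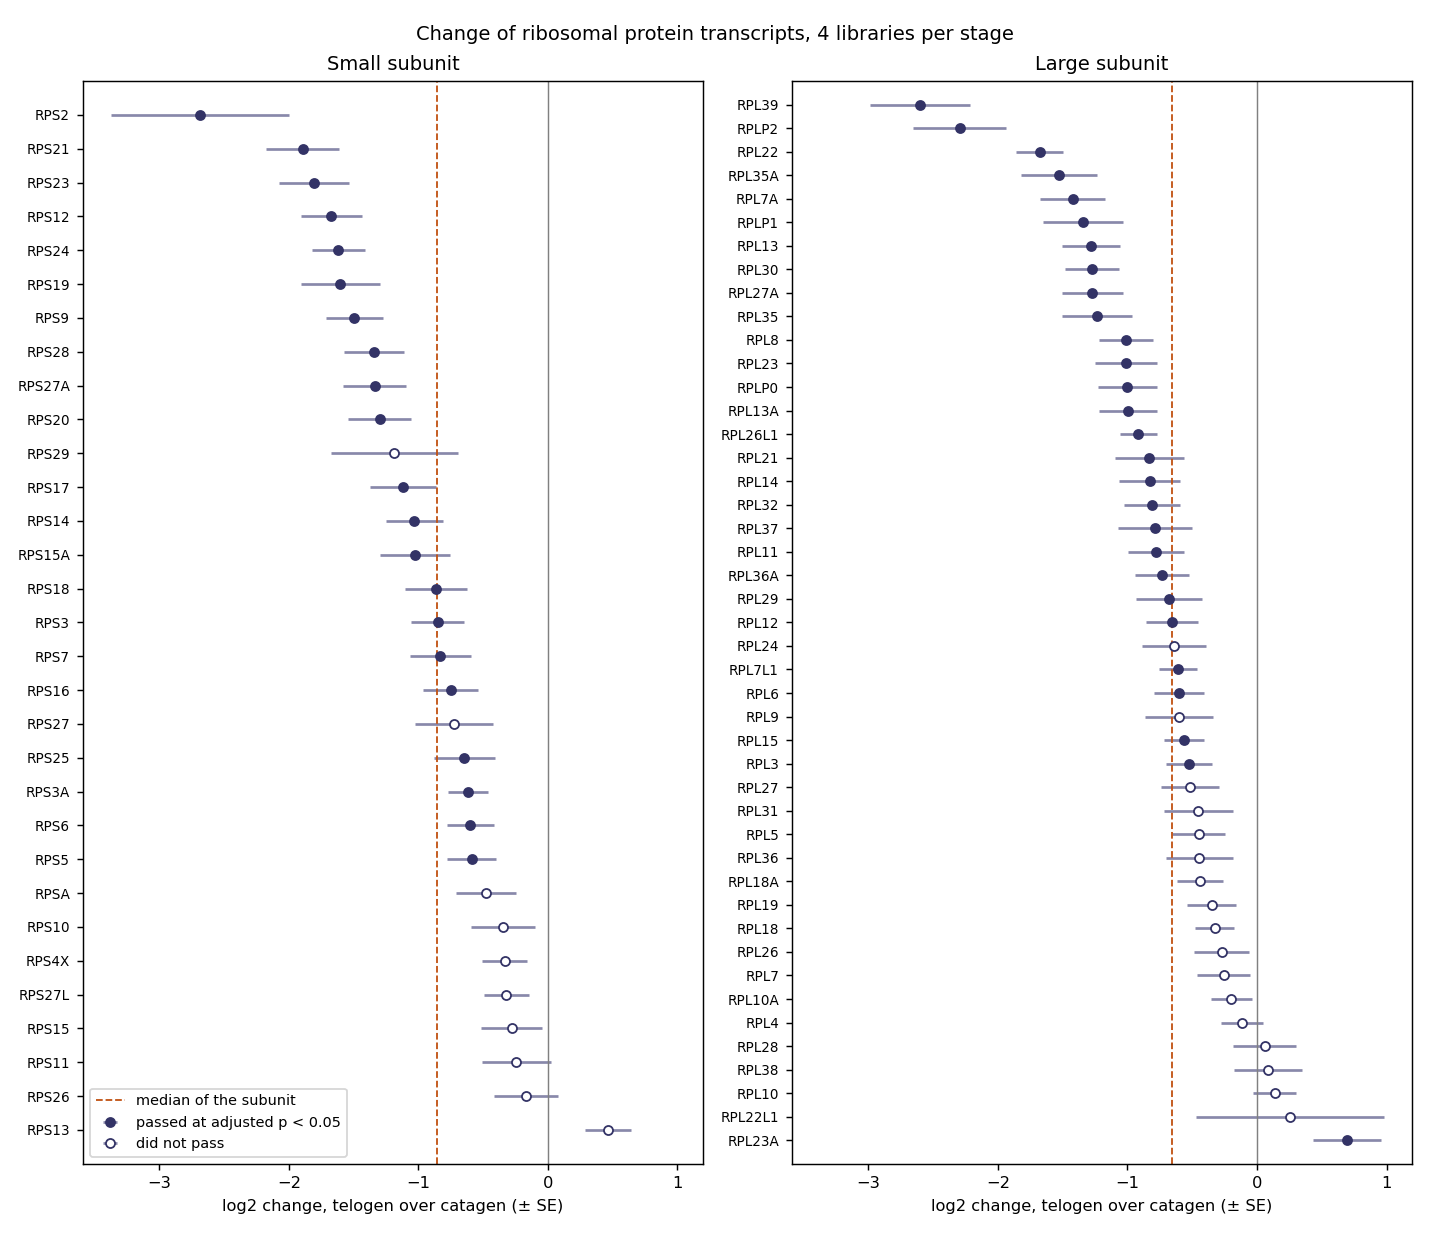
Log2 change of 76 of the 77 tested members in telogen over catagen with its standard error, small subunit members on the left and large subunit members on the right; filled points passed at adjusted p < 0.05 and the dashed line is the median of all tested members of the subunit (-0.86 and -0.65). RPS2, RPL39 and RPLP2 lie farthest to the left, and RPL23A is the only filled point to the right of 0.

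The acidic stalk of the large subunit, built from RPLP0 with dimers of RPLP1 and RPLP2, recruits elongation factors to the ribosome. RPLP2 stood at 198 and 134 in the February male and female and 298 and 122 in the March male and female. In catagen it stood at 581 and 1788 in the November male and female and 866 and 638 in the December pair. Every telogen library lay below every catagen library, and RPLP2 fell by 2.30 on the log2 scale (SE 0.363, limma adjusted p = 0.00075).

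RPLP1 had values of 2833, 2363, 3909 and 1935 in telogen and 5695, 9871, 7303 and 5124 in catagen, in the same library order. The stages did not overlap, and RPLP1 fell by 1.34 (SE 0.307, limma adjusted p = 0.0045). RPLP0, the scaffold of the stalk, had 1207, 1073, 1744 and 971 in telogen and 2127, 3376, 2429 and 2015 in catagen. It fell by 1.00 (SE 0.228, limma adjusted p = 0.0044) with no overlap, though its March male value was the nearest to catagen.

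The 3 stalk genes therefore did not keep their proportions. The ratio of RPLP1 to RPLP2 on the per-length scale was 5.05 ± 2.17 in anagen, 7.95 ± 1.79 in catagen and 15.2 ± 1.95 in telogen (SD, n = 4 each). It ranged from 3.38 to 8.11 in anagen, 5.52 to 9.80 in catagen and 13.1 to 17.6 in telogen. The ratio of RPLP0 to RPLP2 was 2.02 ± 0.505, 2.88 ± 0.747 and 6.97 ± 1.16 in anagen, catagen and telogen. RPLP1, RPLP2 and RPL39 had been named with earlier results of these data known, so their values are descriptions.

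RPL39, a very small protein that lines the tunnel through which the new chain leaves the ribosome, had the largest fall without overlap. It stood at 144 and 97.4 in the February male and female and at 194 and 96.2 in the March male and female. In catagen it stood at 502 and 1730 in the November male and female and at 837 and 503 in the December pair. RPL39 fell by 2.60 (SE 0.388, limma adjusted p = 0.00059), the highest telogen value being 194 and the lowest catagen value 502.

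RPL23A, which sits beside the tunnel exit and is a docking site for factors that meet the new chain, moved the other way. It had 5642 and 4881 in the February male and female and 3034 and 4615 in the March pair, against 3454 and 2283 in the November pair and 2747 and 2581 in the December pair. The March male lay below the November male, so the stages overlapped. RPL23A rose by 0.70 (SE 0.261, limma adjusted p = 0.0457). The call was lost in 11 of 22 alternatives with adjusted p up to 0.133, among them leaving out the May female, September female, November female, either December library, either February library or the March female. The ratio of RPL23A to RPL39 was 0.862 to 3.42 in anagen, 1.32 to 6.89 in catagen and 15.6 to 50.1 in telogen.

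**Figure D3:**
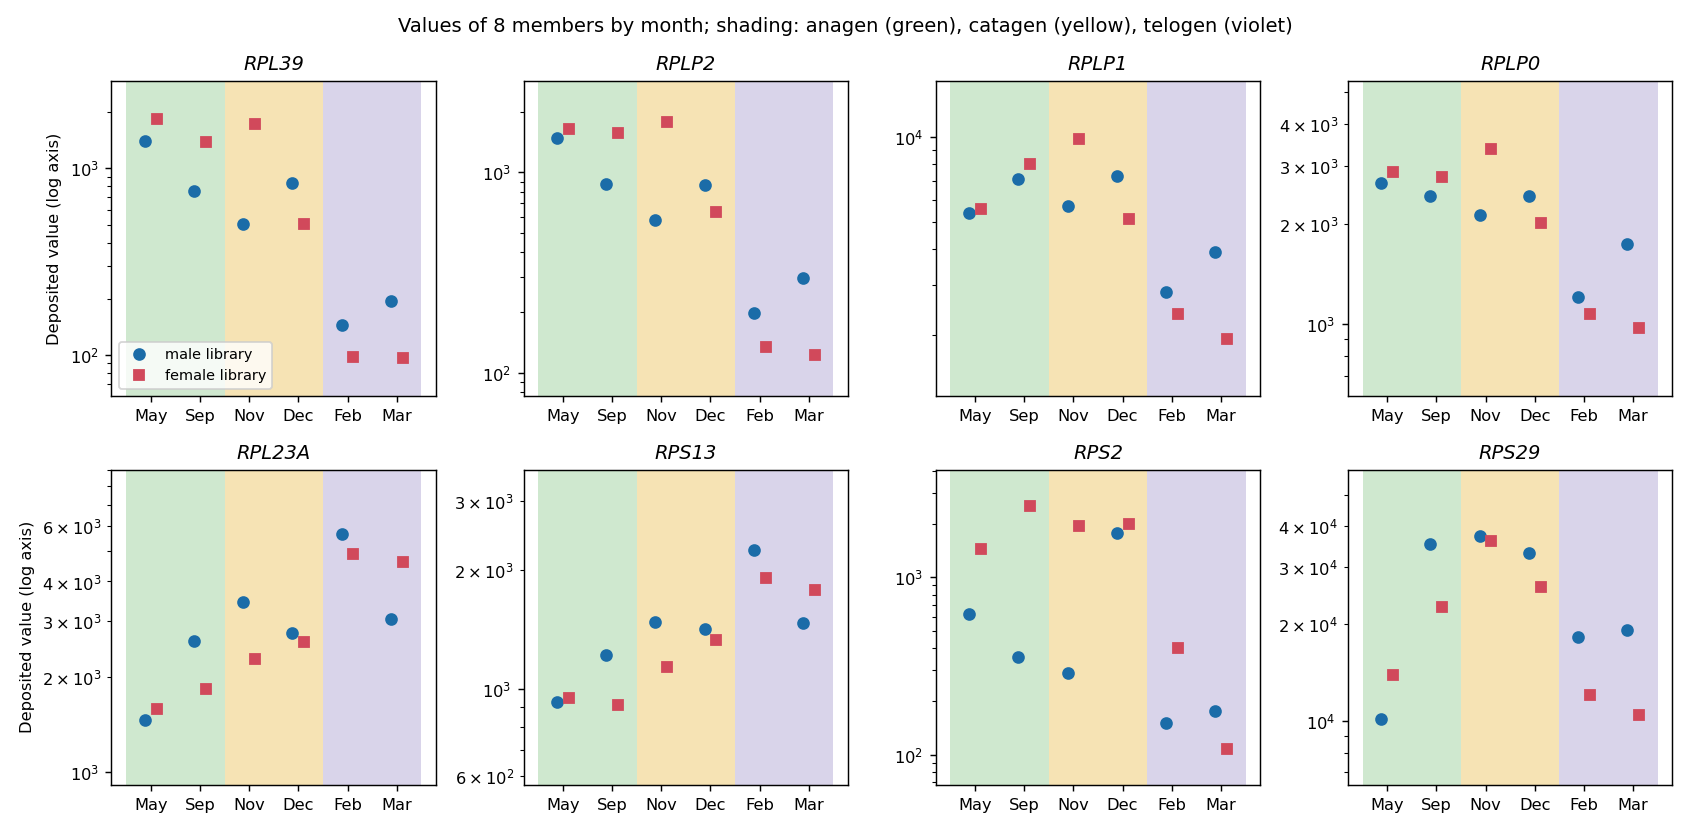
Deposited values of 8 members by month on log axes, 1 circle per male library and 1 square per female library, with the stages shaded. RPL39, RPLP2, RPLP1 and RPLP0 are lowest in February and March, RPL23A and RPS13 are highest there, RPS2 differs widely between libraries of the same stage, and RPS29 is low in May as well as in telogen.

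RPL5 and RPL11 join 5S ribosomal RNA before it enters the large subunit and can bind the ubiquitin ligase MDM2. RPL11 had 2685, 2099, 2602 and 1878 in telogen (February male and female, March male and female) and 3828, 4615, 4045 and 3354 in catagen (November male and female, December male and female). It fell by 0.78 (SE 0.216, limma adjusted p = 0.0118). RPL5 had 2119 ± 260.2 in telogen and 2893 ± 306 in catagen (SD, n = 4), and its log2 difference of -0.45 (SE 0.203) did not pass, with a limma adjusted p of 0.0872.

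After RPL39 and RPLP2, the largest falls in the large subunit were those of RPL22 (-1.68), RPL35A (-1.53) and RPL7A (-1.42). RPL22, which binds RNA and is dispensable for most translation in mice, had 782, 644, 832 and 578 in telogen and 2244, 2118, 2609 and 2056 in catagen. Its standard error of 0.180 was small for a change of this size (limma adjusted p = 0.00019), the highest telogen value being 832 and the lowest catagen value 2056. RPL35A, a gene of inherited Diamond-Blackfan anaemia in humans, and RPL7A were named after their values were seen.

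RPL37, RPL31 and RPL23 were, after RPLP1, the large subunit members with the highest means. RPL23 fell by 1.01 (limma adjusted p = 0.0052), with 2982 ± 416 in telogen and 5998 ± 764 in catagen (SD, n = 4). RPL37 fell by 0.78 (adjusted p = 0.0406), with 3998 ± 782 in telogen and 6820 ± 752 in catagen, a call lost in 10 of 22 alternatives. These included leaving out the September female, either November library, either December library, either February library or the March female, with adjusted p up to 0.154. RPL31, with a log2 difference of -0.45 (adjusted p = 0.183), did not pass.

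In the small subunit, RPS21 and RPS23 had the largest falls without overlap. RPS21 had 491, 355, 573 and 294 in telogen and 1256, 2637, 1548 and 1094 in catagen, and fell by 1.89 (SE 0.283, limma adjusted p = 0.000595). RPS23, a protein of the decoding centre, had 967, 643, 1160 and 596 in telogen and 2302, 4319, 3183 and 2038 in catagen. It fell by 1.81 (SE 0.274, limma adjusted p = 0.000607). RPS19, mutated in Diamond-Blackfan anaemia in humans, had 559 ± 172 in telogen and 1795 ± 937 in catagen (SD, n = 4) and fell by 1.604 (SE 0.306, limma adjusted p = 0.0018).

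RPS2, which lies near the channel where messenger RNA enters, had the largest fitted change but also the largest spread. It stood at 150.1, 400.3, 176 and 108 in telogen and at 290.1, 1940, 1771 and 1991 in catagen. The November male lay below the February female, so the stages overlapped. It fell by 2.68 (SE 0.689, limma adjusted p = 0.0082), and it is named here after its values were seen.

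RPS29 was lower in all 4 telogen libraries (18150, 12067, 19076 and 10468) than in any catagen library (37345, 36144, 33175 and 26059). Its log2 difference of -1.18 (SE 0.491) still did not pass, with a limma adjusted p of 0.0661. The fit shares its spread with anagen, where RPS29 had 10193 and 13933 in May but 35225 and 22482 in September. Without both May libraries, without the September male, or under any of the 3 other scalings it passed, with adjusted p down to 0.0310.

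RPS6, the small subunit protein phosphorylated by S6 kinases, fell by 0.60 (SE 0.182, limma adjusted p = 0.0184), with 1658 ± 218 in telogen and 2512 ± 338 in catagen (SD, n = 4). The call was lost without the November female or the February female, with quantile normalization and with averaged months (adjusted p up to 0.265). RPSA, also known as a laminin receptor, had a log2 difference of -0.48 (adjusted p = 0.114) and did not pass. RPS13 was higher in telogen by 0.46 (SE 0.179), just outside the threshold with a limma adjusted p of 0.0511.

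RPS27A is made as a fusion of a ribosomal protein with ubiquitin. It fell by 1.34 (SE 0.243, limma adjusted p = 0.0014), with 1295 ± 371 in telogen and 3197 ± 475 in catagen (SD, n = 4). Of the ribosomal proteins outside the name pattern, FAU, a fusion of a ubiquitin-like protein with a small subunit protein, fell by 0.95 (SE 0.186, adjusted p = 0.0020). In anagen over telogen FAU was higher by 1.03 (SE 0.186, limma adjusted p = 0.00075), with 1224, 1326, 1192 and 1462 in anagen and 758, 577, 712 and 519 in telogen. RACK1 fell by 0.47 (adjusted p = 0.0469), a call lost in 16 of 22 alternatives, 9 of which left out a single library: the May female, May male, September female, either November library, the December male, either February library or the March female. The call was also lost with quantile normalization, both other library scalings, no filter, the replicate block, averaged months and no May libraries. Over the alternatives the change of RACK1 ran from -0.54 to -0.097, with limma adjusted p up to 0.654.

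The paralogs had low values beside their main copies, and reads shared with the main copy make them uncertain. RPL26L1 had 26.2 ± 5.74 in telogen and 49.6 ± 4.78 in catagen (SD, n = 4) and fell by 0.92 (SE 0.144, limma adjusted p = 0.00074), while RPL26, at -0.27, did not pass. RPL7L1, a factor of pre-ribosome processing, had 31.0 ± 8.07 in telogen and 46.8 ± 4.25 in catagen and fell by 0.61 (adjusted p = 0.0062), while RPL7, at -0.26, did not pass. RPS27L had a log2 difference of -0.32 (adjusted p = 0.147). RPL22L1 was above 0 in 5 of 12 libraries, reaching 6.39 in the December male. RPL10L stayed at or below 1.17, and RPL3L, which replaces RPL3 in mouse muscle, did not reach 1 in any library. The differences between paralog and main copy were not tested.

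Catagen was compared with anagen, when growth ends. No member passed, and 0.0559% of all genes did (limma). At an unadjusted p below 0.05 there were 12 of 77 members and 2519 of 16095 genes, nearly the same share. Catagen lay wholly above anagen for 1 member and wholly below it for 0, against 3.4% and 3.63% of all genes. The median log2 change of the members was 0.26, with 60 of 77 above 0, against -0.02 for all genes. Small subunit members had a median of 0.31 and large subunit members 0.25. Without both May libraries the median was 0.08, with 54 members above 0.

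The log2 difference of catagen over anagen was 0.07 for RPLP1 (SE 0.307), -0.64 for RPLP2 (SE 0.363) and -0.72 for RPL39 (SE 0.388), none of them past the threshold. RPLP1 stood at -0.16 without both May libraries. The catagen values of RPL39 spread on both sides of the lowest anagen value. The November female, at 1730 for RPL39, lay among the anagen values of 758 to 1836, and the November male and December female, at 502 and 503, lay below them.

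In anagen compared with telogen, 35 members were higher and 4 lower, where 52.9% of all genes passed, 23.7% as higher and 29.2% as lower. The share of members called, 50.6%, was close to that background. The member median was 0.43 and that of all genes -0.07. Of the small subunit members, 15 of 32 were higher and 1 lower, and 20 of 45 large subunit members were higher and 3 lower. Anagen lay wholly above telogen for 36 members and wholly below for 2, against 20.1% and 23.2% of all genes.

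RPL39 had 1397 and 1836 in the May male and female and 758 and 1386 in the September pair, with telogen values of 96.2 to 194. It was higher in anagen by 3.32 (SE 0.388, limma adjusted p = 0.00013). RPLP2 had 1485 and 1653 in May and 880 and 1579 in September, against 122 to 298 in telogen, and was higher by 2.94 (SE 0.363, adjusted p = 0.00015). RPS21 (2.14), RPS19 (2.02) and RPS23 (1.91) were the next largest without overlap, RPLP1 was higher by 1.27 (SE 0.307, adjusted p = 0.0042) and RPLP0 by 1.14 (SE 0.228, adjusted p = 0.0014).

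The 4 members lower in anagen were RPL23A, RPS13, RPL38 and RPL28. RPL23A had 1455, 1583, 2592 and 1822 in anagen and 5642, 4881, 3034 and 4615 in telogen, and fell by 1.29 (SE 0.261, limma adjusted p = 0.0015) with no overlap. RPS13 had 929, 946, 1221 and 913 in anagen and 2250, 1916, 1474 and 1786 in telogen, and fell by 0.88 (SE 0.179, adjusted p = 0.0015), also with no overlap.

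RPL38, whose loss in mice alters the translation of Hox messenger RNAs, had 1066 and 1079 in May, 2413 and 1880 in September and 2225 to 3120 in telogen. It fell by 0.77 (SE 0.263, limma adjusted p = 0.0262). RPL28 had 919 ± 337 in anagen and 1414 ± 242 in telogen (SD, n = 4) and fell by 0.68 (SE 0.243, limma adjusted p = 0.0324). Anagen and telogen overlapped for both. Both rested on May: without both May libraries their changes were not past the threshold, and leaving out either May library or the February male also ended both calls. The call of RPL28 also ended when the September female or either telogen female was left out. Adjusted p reached 0.369 for RPL38 and 0.348 for RPL28, and both were named after their values were seen.

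Other transcripts differed between the same libraries. Hair keratins summed to 17156 to 21901 in anagen and 3753 to 12938 in telogen, and mitochondrial transcripts to 14262 to 26036 in anagen and 41883 to 114554 in telogen. Skeletal muscle markers, 14 in the table and none at 0 throughout a stage, summed to 123 to 326 in anagen and 53.8 to 87.9 in telogen, with 4 of 14 higher and 1 lower. The anagen muscle sums were 320 and 326 in the May male and female and 123 and 127 in the September pair. Immune cell markers summed to 54.9 to 74.3 in anagen and 70.5 to 107 in telogen, with 0 of 10 tested higher and 6 lower, and endothelial markers to 112 to 128 in anagen and 90.9 to 205 in telogen, with 1 of 8 higher and 3 lower. Of 10 markers each, 3 of dermal fibroblasts and 2 of epidermis were higher and 0 lower. Their part in the result was not tested. Without the March male 37 members were higher and 5 lower, and without both May libraries as well 41 were higher and 2 lower. Over all genes 4043 were higher and 4625 lower without the March male, and 3330 and 3633 without both May libraries as well.

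Members were then set against their own family by subtracting, in each library, the median log2 value of the tested members. Relative to that median 22 members fell and 9 rose in telogen over catagen. All genes shift when the family is the reference, and 72.6% of them passed here, 2.03% as lower and 70.6% as higher. RPS2 (-2.05), RPL39 (-1.97), RPLP2 (-1.66), RPS21 (-1.26), RPS23 (-1.17) and RPL22 (-1.04) fell the most beyond the family. RPLP1 also fell beyond it, by 0.71 (SE 0.205), while RPLP0, at -0.37, did not pass (limma adjusted p = 0.0932). RPL39, RPLP2 and RPLP1 had been named as breaking from the group with earlier results of these data known. Their values relative to the family are therefore descriptions, and their difference from RPLP0 was not tested.

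The 9 members that rose against the family were RPL23A (1.33), RPS13 (1.10), RPL10 (0.77), RPL38 (0.72), RPL28 (0.69), RPL4, RPS26, RPL10A and RPL7. RPL10 completes the catalytic region of the large subunit late in its maturation. Among the 73 members, RPL4 varied least, its highest library being 1.33 times its lowest, where the median was 2.52 times and RPS2 (23.4), RPL39 (19.1) and RPLP2 (14.6) varied most.

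In anagen over telogen 26 members lay higher and 17 lower relative to the family median, where 59.7% of all genes passed, 6.89% as higher and 52.8% as lower. RPL39 (2.89), RPLP2 (2.51), RPS2 (1.93) and RPS21 (1.71) were farthest above, RPLP1 was above by 0.84 and RPLP0 by 0.71. RPL23A (-1.72), RPS13 (-1.31), RPL38 (-1.19) and RPL28 (-1.10) were farthest below. In catagen over anagen no member passed in this fit and 0.0746% of all genes did. At an unadjusted p below 0.05 in limma there were 12 of 77 members and 2981 of 16095 genes. Without the September male 4 members passed, all lower, and the count over all genes in that fit is not given here.

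**Figure D4:**
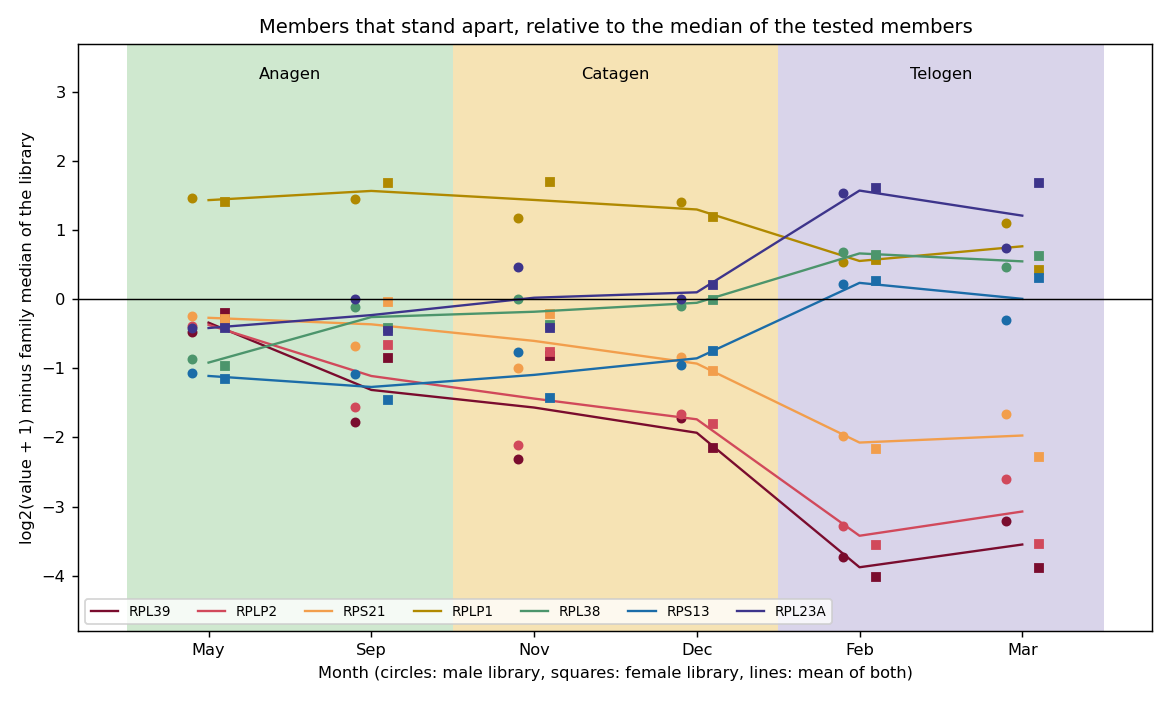
Log2(value + 1) of 7 members minus the median of the tested members in the same library, by month, with circles for male libraries, squares for female libraries and lines through the mean of both. RPL39, RPLP2 and RPS21 lie below the family median in every stage and farthest below it in February and March. RPLP1 lies above the median throughout, though less far in those months, and RPL23A, RPL38 and RPS13 lie highest there.

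The genes whose profile over the 12 libraries was most like that of RPL39 lay partly in its own family. Pearson's r of log2 values with RPLP2 was 0.997, the highest of 76 other members, followed by RPL7A (0.994), RPL35A (0.992) and RPS19 (0.989). Outside the family, among 10585 genes, COPS9, a subunit of the COP9 signalosome, had 0.996, TOMM7, of the mitochondrial import pore, 0.994, and C25H16orf91 0.994, followed by PYCRL and PSMB4. RPLP2 had TOMM7 (0.996), PSMB4, C25H16orf91, COPS9 and WDR74. RPLP1 had other neighbours, RPL35 (0.993) and RPS18 (0.993) in the family and ECI1 (0.990), PSMB1, EEF1B2, SERF2 and MRPS7 outside it. All these values come from the same 12 libraries and share their stage differences.

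Against the median of the family, the lowest correlations over the 12 libraries were those of RPS13 (-0.50), RPL23A (-0.48), RPL22L1 (-0.27), RPL10 (-0.16), RPL28 (-0.01) and RPL38 (0.06). RPL22L1 was listed at 0 in 7 of 12 libraries. The other 5 are the members with the highest mean in February.

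By month, 48 of the 77 members had their highest mean in November, 12 in December, 9 in May, 5 in February, 2 in September and 1 in March. Those highest in May included RPL15, RPL35A, RPL39, RPL7A, RPLP0, RPLP2, RPS14 and RPS19. Lowest means fell in March for 27 members, in May for 25, in February for 24 and in September for 1. RPS29 and RPSA were among those lowest in May.

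**Figure D5:**
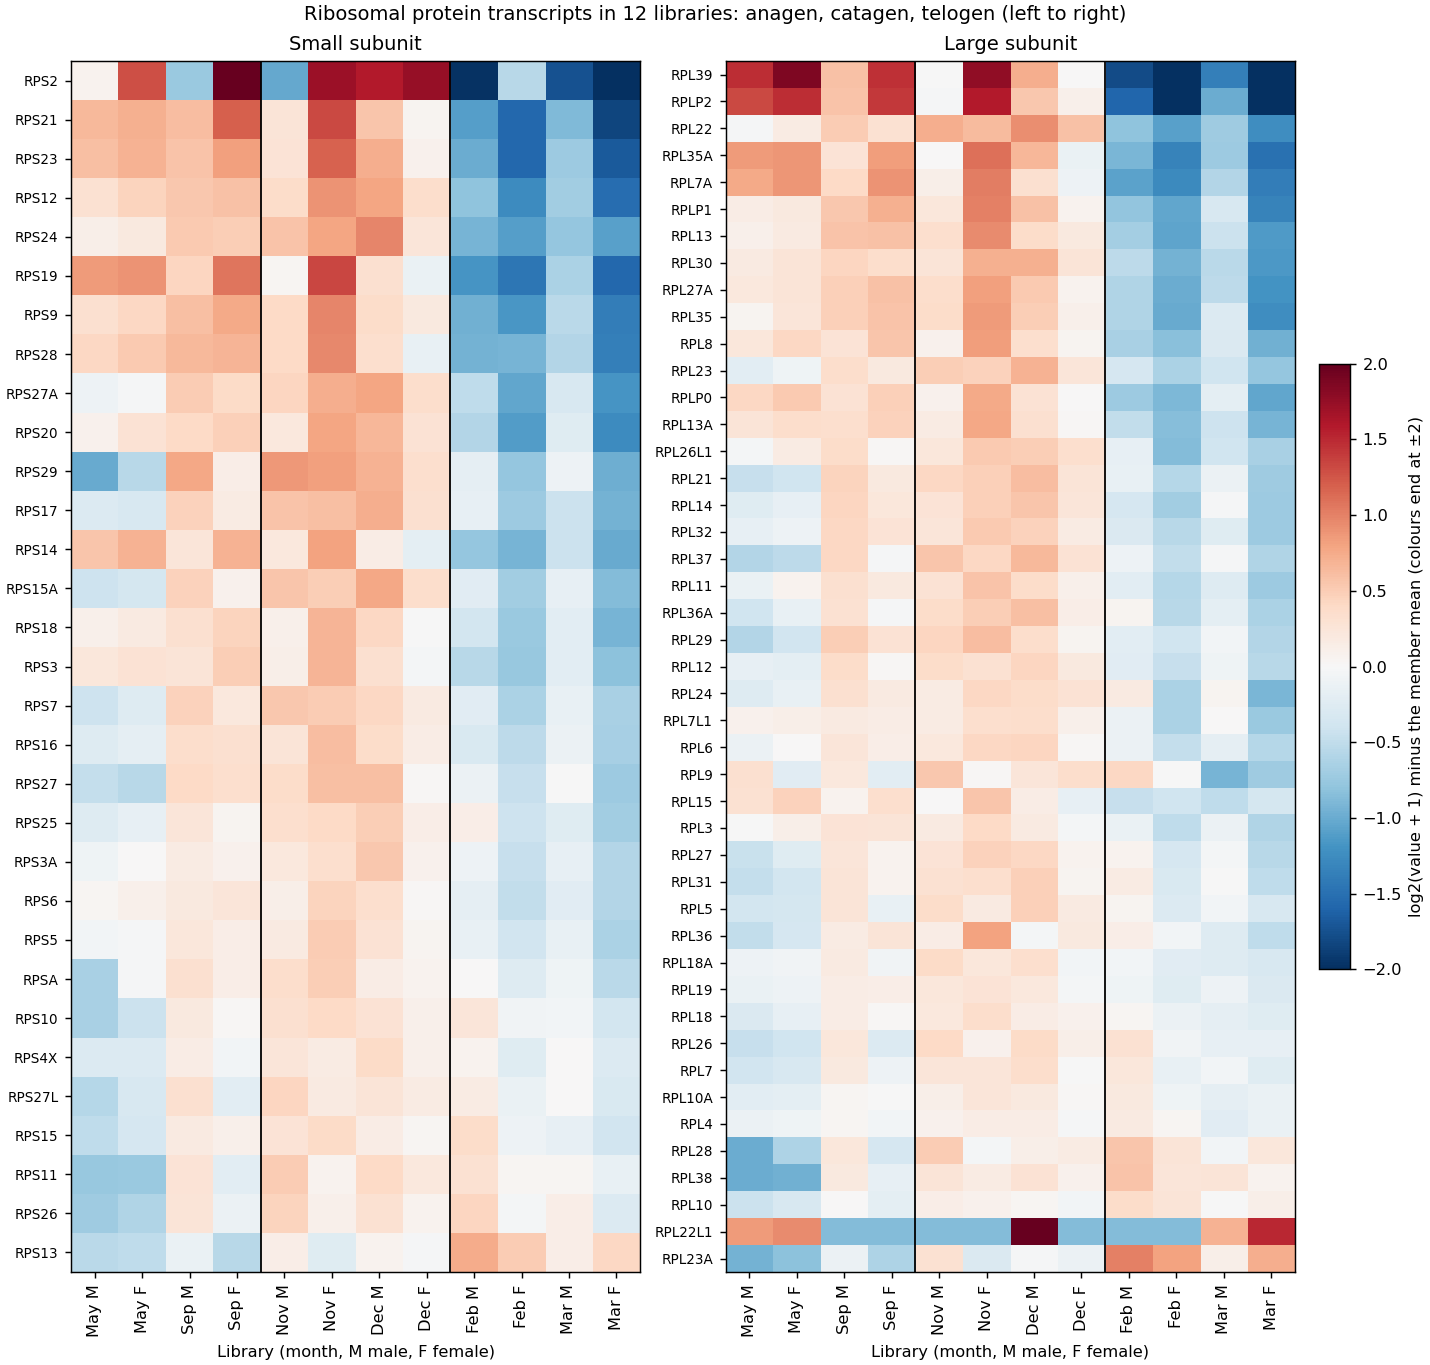
Log2(value + 1) of 76 of the 77 tested members, each minus its own mean over 12 libraries, small subunit members on the left and large subunit members on the right, each ordered by the change in telogen over catagen; black lines part anagen, catagen and telogen. Most members are low (blue) in February and March and high (red) in November, while RPL23A and RPS13 at the bottom are high in telogen.

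The F test over the 6 months passed for 31 members, 40.3% of those tested, against 32.7% of all genes. Without the 4 telogen libraries 0 passed, in a fit for which the share of all genes is not given here. That 0 is therefore not read as a result about the members. RPL22 (adjusted p = 0.0053), RPL39 (0.0064) and RPS24 (0.0071) had the smallest limma adjusted p. The count rested on single libraries: leaving out the May female gave 14, the May male 16, the September female 18, the December male 19 and either February library 15.

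Within anagen, September was compared with May. No member passed, and 0.137% of all genes did, 0.0311% as higher and 0.106% as lower. At an unadjusted p below 0.05 in limma there were 10 of 77 members and 1572 of 16095 genes. September lay above May in both libraries for 58 of 77 members and below it for 3, against 25.5% and 26.5% of all genes. RPL38 had 2413 and 1880 in the September male and female and 1066 and 1079 in the May pair, a log2 difference of 0.99 (SE 0.256, limma adjusted p = 0.280). That of RPS29 was 1.24 (SE 0.609) and that of RPL39 was -0.64 (SE 0.567). Skeletal muscle markers summed to 123 and 127 in September and 320 and 326 in May, and dermal fibroblast markers to 1462 and 1389 in September and 2056 and 2048 in May. Their part in this shift was not tested.

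November against September and December against November gave 0 members each, where 0.0186% and 0% of all genes passed. At an unadjusted p below 0.05 in limma there were 0 members in either, against 299 and 588 of 16095 genes. Leaving out the December female gave 1 member higher in December against November. March against February gave 0, and 0.00621% of all genes, with 2 members and 636 genes at an unadjusted p below 0.05. RPL9 was the member with the smallest unadjusted p (0.0037), at 354 and 412 in March and 899 and 673 in February, with an adjusted p of 0.988 in limma.

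February against December was the month step with the most falls: 17 members fell and 0 rose, 22.1% of members against 16.6% of all genes (8.9% higher and 7.69% lower). February lay wholly below December for 59 members and wholly above it for 4, against 28.4% and 37.9% of all genes. RPL22 fell by 1.70 (SE 0.256, limma adjusted p = 0.0133), RPS24 by 1.63 (SE 0.291, adjusted p = 0.0181), RPL39 by 2.44 (SE 0.567, adjusted p = 0.0264) and RPLP2 by 2.18 (SE 0.548, adjusted p = 0.0299). With 2 libraries per month the count depended on each of them. Leaving out either May library gave 8, either September library 11, the December female 1, the December male 0, the February female 2, the February male 0 and either March library 33.

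May against March closed the cycle with 21 members higher and 4 lower, 32.5% of members against 27.4% of all genes (13.9% higher and 13.4% lower). RPL39 was higher by 3.54 (SE 0.567, limma adjusted p = 0.0064) and RPLP2 by 3.03 (SE 0.548, adjusted p = 0.0086), while RPL38 fell by 1.14 and RPL23A was lower as well, at 1455 and 1583 in May and 3034 and 4615 in March. May lay wholly above March for 42 members and wholly below it for 14, against 29.8% and 36.8% of all genes. The count of 25 became 0 when the May female was left out, 1 for the May male and 3 for the March female.

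No member passed between male and female libraries with month as a block, where 0.0559% of all genes passed, 0.0435% as higher and 0.0124% as lower. RPS2 was the only member, beside 1185 of 16095 genes, with an unadjusted p below 0.05 in limma (0.0181, adjusted p = 0.616), with a log2 difference of -1.28 (SE 0.440) in males over females. It was lower in the male library than in the female library in May (619 against 1441), September (355 against 2531), November (290.1 against 1940), December (1771 against 1991) and February (150.1 against 400.3), and higher in March (176 against 108). In all, 68 of 77 members were above 0 in males over females, with a median of 0.14. Of all genes, 8334 of 16095 were above 0, with a median of 0.006. RPL39 stood at -0.12 (SE 0.346) and RPLP2 at -0.06 (SE 0.336).

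The other genes of the translation machinery are given by list, with the medians of all genes (0.07 in telogen over catagen, -0.07 in anagen over telogen) as background. Of all genes, 24.5% rose and 19% fell in telogen over catagen, and 23.7% were higher and 29.2% lower in anagen over telogen. Of 7 elongation factor genes 4 fell and 0 rose in telogen over catagen, with a median of -0.53, and 1 rose with quantile normalization or equal library sums. EEF1G fell by 0.86 (SE 0.180, limma adjusted p = 0.0029) and EEF1B2 by 0.91 (SE 0.176, adjusted p = 0.0019), both subunits of the exchange factor that reloads EEF1A. In anagen over telogen 4 of the 7 were higher and 1 lower, with EEF1G at 0.97 and EEF1B2 at 0.80.

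Initiation factor 3, which binds the small subunit before initiation, was split, with 2 of 12 subunit genes higher and 3 lower both in telogen over catagen, with a median of -0.04, and in anagen over telogen, with a median of -0.12. The anagen over telogen counts did not hold under scaling: 1 was higher and 5 lower with quantile normalization or equal library sums. With sums over genes other than members and mitochondrial transcripts 1 was higher and 6 lower. EIF3A was higher in telogen by 0.33 (SE 0.0849, limma adjusted p = 0.0081) and EIF3G lower by 0.45 (SE 0.120, adjusted p = 0.0100). Both calls were lost only with averaged months, where adjusted p was up to 0.0539. EIF3H had 148, 149.6, 194 and 162 in anagen and 342, 332, 208 and 279.8 in telogen. It fell by 0.81 in anagen over telogen (SE 0.156, limma adjusted p = 0.0011).

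Among 18 entries for other initiation factors and messenger RNAs with the terminal oligopyrimidine motif, 8 fell and 0 rose in telogen over catagen, with a median of -0.32, and 1 rose with quantile normalization or equal library sums. NACA, a chaperone that meets new chains at the ribosome, had 501, 413, 575 and 399 in telogen and 982, 1356, 1236 and 878 in catagen. It fell by 1.23 (SE 0.174, limma adjusted p = 0.00048). In anagen over telogen 5 of the 18 were higher and 3 lower. NACA was higher by 1.19, whereas BTF3, its partner in the same chaperone, fell by 0.48 (limma adjusted p = 0.0143) and PABPC1, which binds poly(A) tails, fell by 0.52 (adjusted p = 0.0105). Both of these calls were lost with averaged months and without both May libraries. Of 12 genes of RNA polymerase I, which makes ribosomal RNA, 6 fell and 1 rose (4 and 1 with equal library sums) with a median of -0.33, POLR1B standing at -0.60, POLR1C at -0.53 and TAF1B at 0.45. The anagen over telogen counts were 6 of 12 higher and 2 lower.

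Genes of growth control of translation gave 0 rises and 2 falls of 18 in telogen over catagen with a median of -0.06, and RPS6KB2, an S6 kinase, fell by 0.66 (SE 0.160, limma adjusted p = 0.0059). This split did not hold under scaling: with library sums set equal 3 rose and 1 fell. The counts in anagen over telogen were 4 of 18 higher and 4 lower.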

How the data were processed

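RNA was isolated with RNAiso Plus, per the labels' protocols. The submitters' processing notes name kallisto 0.46.1 and sleuth 0.30.0, and the genome build is not given in the sources used here. The deposited signal values carry the heading TPM, but library sums ran from 904623 to 1127797 rather than to 1 total, and how the authors scaled them is not given in the sources used here. Read depth is unknown, so no counting interval or floor is given.

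Values were taken as log2(value + 1), which understates changes of low genes. The filter (a value of 1 or more in 2 or more libraries) kept 16095 of 20326 genes, tested in limma 3.58.1 (R 4.3.3) with a mean-variance trend. Stages had 4 libraries, months 2, and month was the block between sexes. Benjamini-Hochberg adjustment covered all tested genes, and the procedure was tested on simulated data. Symbols came from the ARS1.2 gene table by gene number (20294 matched), which does not name the build of the files.

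The members and lists were chosen with earlier results of these data known. Named were RPL39, RPLP1, RPLP2, RPLP0, RPSA, RPS6, the paralogs, the 5 members with the highest means, and, per stage comparison, the 5 largest rises and falls that passed with no overlap. List genes were named from the 3 with the highest means that passed, and the 5 genes most correlated with each of RPL39, RPLP1 and RPLP2 were added. Members named for the relative fit, single months, correlation with the family or role lie outside this rule and were picked after their values were seen. RPL41 and RPL39L are not analysed here, and a few genes are not reported here by name. Alternatives were quantile normalization, 2 other library scalings, no filter, added constants of 0.1 and 5, a block for replicate number, averaged months, no May libraries and each library left out.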

Additional observations from a re-analysis of the deposited data

Results flagged for a closer look

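Of 87 groups of 4 libraries examined, 6 held a library farther from the other 3 than the 95% critical value of Dixon's test allows, which chance gives in about 1 in 20 groups. In catagen the December female stood apart with a small subunit share of 10.3% of the signal, against 12.47 to 12.49% in the other 3 libraries, and a share of all members of 20.6%, against 24.4 to 24.8%. RPL22L1 was at 6.39 in the December male and listed at 0 in the other 3 catagen libraries. RPS2 was at 290.1 in the November male, against 1771 to 1991 in the rest of catagen. In anagen RPS13 was at 1221 in the September male, against 913 to 946 in the others, and RPS21 was at 2422 in the September female, against 1620 to 1722.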

How the results depend on the processing

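Read depth is unknown, each month has 2 libraries, and stage and season cannot be told apart. With month means averaged, 32 members fell in telogen over catagen in place of 49, a fit with fewer values. Over all genes 2569 fell in that fit, in place of 3063. Without the 4 telogen libraries the F test over months called 0 in place of 31, and the share of all genes in that fit is not given here. Without RPL39, RPLP1 and RPLP2 the subunit ratio was 1.03, 1.10 and 0.888 in anagen, catagen and telogen. As a ratio of geometric means it was 1.50, 1.54 and 1.32 in anagen, catagen and telogen. The geometric means took in the low paralogs, RPL22L1, RPL26L1 and RPL7L1 of the large subunit but only RPS27L of the small. The level of that ratio therefore cannot be set beside that of the summed ratio. Without RPS29, a choice made after seeing the data, the summed ratio was 0.743, 0.744 and 0.660. Leaving out 1 library at a time gave 40 to 51 falls in telogen over catagen, 30 to 37 rises in anagen over telogen, and 0 in catagen over anagen, September over May, November over September, March over February and male over female. It gave 0 to 1 calls in December over November, 0 to 33 in February over December, 0 to 32 in May over March and 14 to 43 in the F test. Relative to the family median it gave 0 to 4 calls in catagen over anagen, 28 to 40 in telogen over catagen and 37 to 44 in anagen over telogen. Over all genes 4371 rose and 2058 fell in telogen over catagen with equal library sums, in place of 3948 and 3063. Replicate numbers mark sex: deviations correlated over 0.1 in 9 of 15 pairs of months, so the numbers were not taken to pair the samples, although all 12 libraries correlated best with a library of their own number. With the replicate block 49 members fell and 0 rose in telogen over catagen, and 36 were higher and 4 lower in anagen over telogen. Over 110 pairs of a named gene and a stage comparison, 2226 of 2420 alternatives kept direction and side of the threshold, 141 lost a call, 20 gained one and 33 turned direction. The turned changes had not passed, and the cause was not tested. In catagen over anagen they were RPLP1 at -0.16 without both May libraries, with or without the March male, and -0.11 to 0.21 with 1 library left out, RPS6 at -0.084 with quantile normalization, RPS23 at -0.31 to 0.051 and RPS2 at -0.14 to 1.00 with 1 library left out. RPL22L1 stood there at 0.016 with a constant of 5, at 0.72 without both May libraries and at -0.88 to 0.15 with 1 library left out. In telogen over catagen, 1 library left out gave RPL22L1 -0.20 to 0.98, RPL38 -0.0057 to 0.16 and RPL28 -0.042 to 0.17. In anagen over telogen, RPSA stood at -0.094 with quantile normalization, RPS27L at 0.12 without both May libraries and 0.14 without the March male as well, and RPL31 at -0.015 and -0.056 with equal library sums over all genes and over genes other than members and mitochondrial transcripts. With 1 library left out RPL22L1 ranged from -0.43 to 0.36, RPL37 from -0.069 to 0.26 and RPL31 from -0.10 to 0.15.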
